A study of Monodelphis domestica with 8 samples.

Results

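The H3K4me3 landscape of the opossum autosomes was described from all peaks on chromosomes 1 to 8 of the H3K4me3 peak list. The list was deposited for the fetal brain of the gray short-tailed opossum (Monodelphis domestica), a laboratory marsupial. Members were taken by chromosome alone, which gave 22086 of the 23987 peaks in the list, and of 54517 in the lists of all 4 marks. The 500 peaks on X and the 1401 on unplaced sequence were left out. Peaks were obtained by chromatin immunoprecipitation and sequencing (ChIP-seq) from chromatin cut with micrococcal nuclease. The 2 H3K4me3 libraries came from female fetuses at embryonic day 13, each library from a pool of 2 sisters. One pool had an LL2 mother and an LL2 father, and the other an LL1 mother and an LL2 father. The lists of the other 3 marks (H3K9Ac, H3K27me3 and H3K9me3) came from the same pools of chromatin and served here only as readouts on the H3K4me3 peaks.

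Both H3K4me3 libraries name the same peak list. It therefore holds 1 set of values with no replicate error, and no test compares samples or chromosomes. Intervals are exact 95% binomial intervals, those of medians from order statistics. They cover the counting of peaks only and are too narrow for neighbouring peaks, which are not independent. For density, the spread over 10 Mb blocks within an autosome is given beside differences between autosomes. For width, score and the H3K9Ac share it is given over the blocks of all autosomes together. Differences in gaps, clusters, H3K27me3 and H3K9me3 are given without it. An autosome averages over many blocks, so single blocks spread more for that reason alone. The list holds no read counts, so depth is unknown. In whole tissue, fewer cells carrying a mark and less of it per cell cannot be told apart. The labelled tissue could not be checked against marker genes, since the list holds positions without gene names and no annotation in its coordinates was used. Positions count from 1 in the coordinates of the list. No label or file header names their genome build.

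H3K4me3 is the trimethylated form of lysine 4 on histone H3. It is deposited by the SET1 and MLL complexes and sits around the start sites of genes, above all at promoters rich in CpG. Broad H3K4me3 peaks are known from genes that define a cell type. H3K9Ac accompanies active promoters. H3K27me3, the product of Polycomb repressive complex 2, meets H3K4me3 at bivalent promoters of developmental genes. The opossum genome is divided among few, very long autosomes.

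The autosomes differed mainly in how many H3K4me3 peaks they carried per unit of length. Together the 22086 peaks covered 52.2 Mb, or 1.53% of a span of 3418 Mb, at 6.46 peaks per Mb. Chromosome 2 was the densest, with 7.77 peaks per Mb (4205 peaks over 541 Mb). Chromosome 1, the longest at 748 Mb, had 6.92 per Mb from 5174 peaks. Chromosome 4 had 6.88 and chromosome 6 had 6.79 per Mb, so these 3 autosomes were nearly alike. Chromosome 8 followed with 6.19 per Mb and chromosome 3 with 5.95. The sparsest were chromosome 5 with 4.99 per Mb and chromosome 7, the shortest at 261 Mb, with 4.45. The densest autosome was 1.75 times as dense as the sparsest (1.64 to 1.87).

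The share of sequence under peaks kept nearly the same order. H3K4me3 peaks covered 1.84% of chromosome 2 and 1.66% of chromosome 1, but 1.18% of chromosome 5 and 1.06% of chromosome 7. Chromosome 5 had 6.88% of the peaks on 8.91% of the length, and chromosome 7 had 5.25% on 7.63%. Longer autosomes tended to be denser (Spearman rho 0.74 and Pearson r 0.58 over the 8 autosomes, as a description). Chromosome 6, the second shortest but among the denser, and chromosome 3, the third longest but among the sparser, were exceptions.

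Density varied widely within autosomes. Whole autosomes average over many blocks, so the 2 spreads are not like for like. Over 339 blocks of 10 Mb the density ran from 0.10 to 26.1 peaks per Mb, with an interquartile range of 3.7 to 8, which spans the values of all 8 autosomes. Block densities on chromosome 2 had a median of 7.00 and an interquartile range of 3.73 to 11.3 per Mb, and those on chromosome 7 a median of 4.30 and a range of 3.15 to 5.95. These 2 interquartile ranges overlap.

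**Figure D1:**
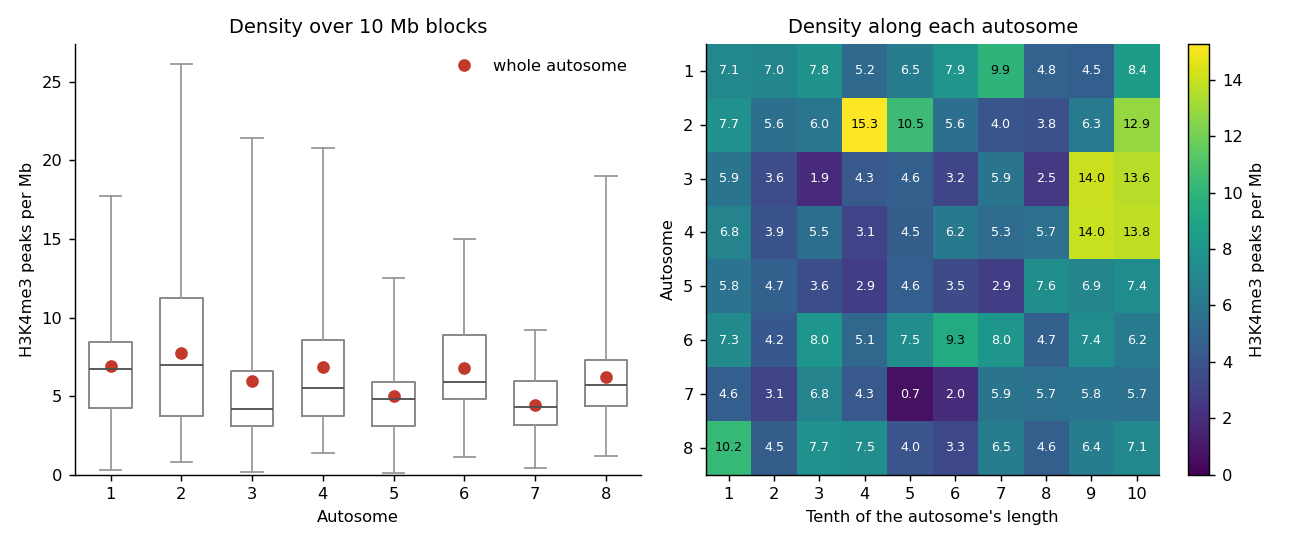
H3K4me3 peaks per Mb over 10 Mb blocks of each autosome (left; box, interquartile range; line, median; whiskers, lowest and highest block; red point, the whole autosome) and in successive parts of 10% of each autosome's length (right; color and printed value, peaks per Mb). The whole-autosome values run from 4.45 to 7.77 per Mb, while the parts of 10% run from 0.690 on chromosome 7 to 15.3 on chromosome 2.

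Each autosome held dense and sparse stretches at its own places. When each was divided into 10 equal parts, the densest part of chromosome 2 was the fourth, with 15.3 peaks per Mb, 4.01 times its sparsest part. On chromosomes 3 and 4 the ninth part was the densest, with 14.0 per Mb on each. The last 20% of the length held 46.5% of the peaks of chromosome 3 and 40.3% of those of chromosome 4. Outside it chromosome 3 had 3.98 and chromosome 4 had 5.13 peaks per Mb, against 13.8 and 13.9 within it. Chromosome 7 had the sparsest part, the fifth, with 0.690 peaks per Mb from 18 peaks. Its densest part held 9.89 times as many per Mb. Chromosomes 1 and 6 were the most even by this measure, with ratios of 2.19 and 2.22.

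Peaks near the end of the coordinates of an autosome were more numerous and weaker. In the last 10% of the length, 3422 peaks gave 10.01 per Mb, against 5.95 per Mb in the inner parts, with higher values on 7 of 8 autosomes and chromosome 6 as the exception. Their median width was 1837 bp against 2089 bp, and their median score 270 against 384, both lower on 8 of 8 autosomes. In the first 10% the density was 6.97 per Mb, higher than in the inner parts on 8 of 8 autosomes. The median score there was 289, and it was lower than in the inner parts on 7 of 8 autosomes. The direction in which an autosome is numbered is a convention, so first and last have no meaning beyond these coordinates.

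Widths were much more alike between autosomes than densities. Over all members the width had a median of 2029 bp, an interquartile range of 1368 to 2954 bp and extremes of 403 and 27305 bp. Only 8.62% of peaks were narrower than 1 kb, and 49.1% were narrower than 2 kb. The 1076 peaks of 5 kb or more made up 4.87% of peaks and held 13.4% of the covered bases, and 49 peaks reached 10 kb. Median width was highest on chromosome 1, at 2085.5 bp (2044 to 2135), followed by chromosome 6 with 2074 bp (1996 to 2167). The lowest medians were 1955.5 bp on chromosome 4 (1910 to 2014) and 1937 bp on chromosome 7 (1846 to 2030). The interval of chromosome 1 lies above those of chromosomes 4 and 7, yet the highest median was only 1.08 times the lowest.

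The block medians of width had an interquartile range of 1859 to 2249.5 bp over the 313 blocks with at least 20 peaks. The medians of the 8 autosomes, each over many blocks, spanned less. The shortest autosome had the narrowest median and also the largest share of broad peaks. On chromosome 7, 6.12% of peaks (71) reached 5 kb, against 3.64% (109) on chromosome 4 and 4.56% (236) on chromosome 1. Chromosomes 5, 8, 2, 3 and 6 had 5.60%, 5.58%, 5.23%, 5.16% and 4.35%, so chromosome 7 was not far above several others. Of the 49 peaks of 10 kb or more, 11 lay on chromosome 3, 10 on chromosome 1 and 9 on chromosome 2, while chromosomes 4 and 6 had 1 each.

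The score attached to each peak by the authors' peak caller rose with width. Its scale is not recorded, so scores are compared only within the list. A ratio of scores, where given, describes the scores and is not a fold difference in enrichment. The median was 344, the interquartile range 119 to 813 and the lowest value 50.01. At the top, 106 peaks tied at exactly 3100 and 31 lay above it, up to 3233.06, so the highest scores do not rank strength finely. Width and score had a Spearman rho between 0.89 and 0.91 across the peaks of each autosome. Both are drawn from the same reads. Peaks of 1 to 2 kb had a median score of 143, those of 2 to 3 kb 567, those of 3 to 5 kb 1072 and those of 5 to 10 kb 1847.

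Median score differed between autosomes by a factor of 1.22. Chromosome 6 had the highest median, 375 (342 to 411), and chromosome 1 the next, 367 (343 to 389). Chromosome 5 had 319 (284 to 353) and chromosome 7 the lowest, 308 (272 to 348). The intervals of chromosomes 6 and 7 overlap. Block medians had an interquartile range of 279 to 487. Weak peaks with a score under 100 made up 19.4% on chromosome 6 and 23.2% on chromosome 7, with the other autosomes between them. Denser autosomes had higher median scores (rho 0.74 and r 0.72 over 8 autosomes, as a description). Over bins of 1 Mb, in contrast, the most crowded classes had the lowest median scores. Peaks alone in their bin had 354, those in bins of 2 to 3 had 382 and of 4 to 6 had 399. Peaks in bins of 7 to 10 had 366, of 11 to 20 had 312 and of 21 or more had 333.

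**Figure D2:**
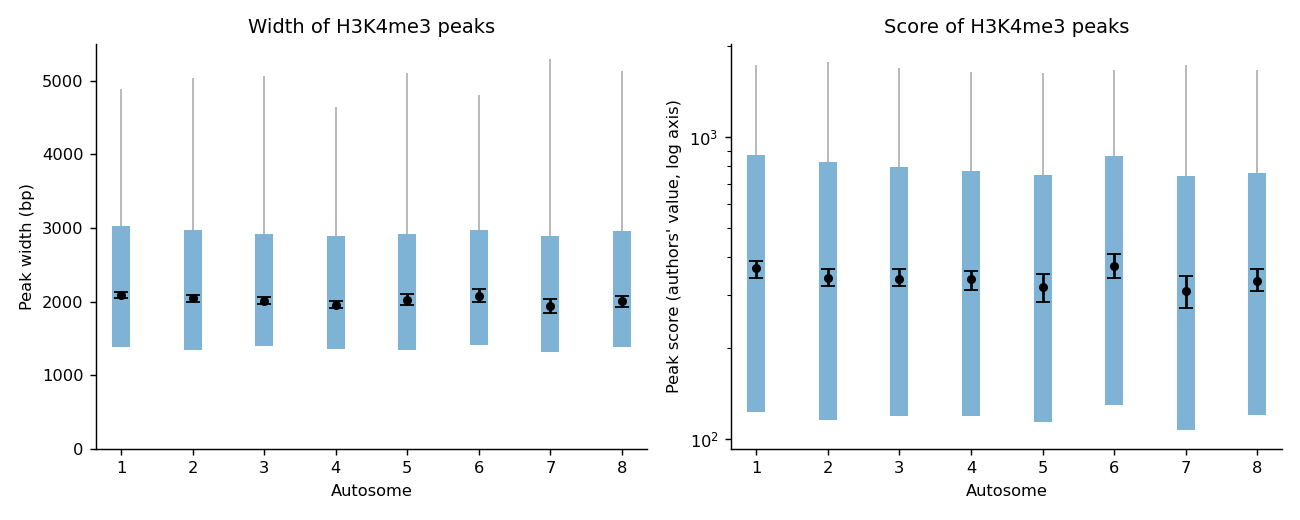
Width (left, bp) and authors' score (right, log axis) of the H3K4me3 peaks of each autosome. Points are medians with 95% intervals for counting, blue bars interquartile ranges, and gray lines reach the 95th percentile. Median widths lie between 1937 and 2085.5 bp and median scores between 308 and 375.

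The 5 highest-scoring peaks were wider than most and acetylated. The 5 peaks with the highest scores lay at chr2:233135829-233141296 (3233.06, 5468 bp), chr3:269074150-269082425 (3233.06, 8276 bp), chr3:483837455-483842399 (3233.06, 4945 bp), chr1:485881596-485889274 (3228.29, 7679 bp) and chr3:42212326-42223437 (3224.03, 11112 bp). Each of the 5 shared sequence with 1 to 3 H3K9Ac peaks, and none touched an H3K27me3 or H3K9me3 peak. Of all members, 42.4% met H3K9Ac, 16.5% met H3K27me3 and 0.484% met H3K9me3 by at least 1 bp. Among the 1352 peaks with a score of 1600 or more, these shares were 91.6%, 8.14% and 0.888%.

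The 2 widest peaks were covered by H3K27me3 and not acetylated. They lie side by side at chr3:203934998-203962302 (27305 bp, score 1918.6) and chr3:203962380-203987287 (24908 bp, score 2672.83). Neither met an H3K9Ac peak, and H3K27me3 peaks covered 94.1% and 99.9% of them. They were not alone in this among peaks of 10 kb or more. The peak just before them, 12745 bp wide, met no H3K9Ac peak either and was 70.4% under H3K27me3. It had a score of 73.55, against a median of 3100 for all peaks of 10 kb or more. Further along, the peak at chr3:203991477-204004758 (13282 bp, score 105) also met no H3K9Ac peak and was 89.1% under H3K27me3. All of these lie in a single group of close neighbours at chr3:203919149-204022736, so they are not separate examples. The next 3 widest peaks were acetylated. At chr1:133705873-133726376 (20504 bp, score 3100), 8 H3K9Ac peaks covered 48.5% of the length and H3K27me3 17.8%. At chr1:624942298-624960718 (18421 bp, score 3100) these shares were 33.2% and 43.2%. At chr8:251866516-251882872 (16357 bp, score 3100), H3K9Ac covered 77.0% and no H3K27me3 peak was met.

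The widest peaks of the remaining 5 autosomes all met H3K9Ac, and those of chromosomes 4 and 5 also met H3K27me3. On chromosome 2 it lay at chr2:233115832-233131950 (16119 bp), with 48.5% under H3K9Ac and no H3K27me3. On chromosome 4 it lay at chr4:308288590-308299136 (10547 bp), with 47.9% under H3K9Ac and 80.4% under H3K27me3. On chromosome 5 it lay at chr5:127464400-127478480 (14081 bp), with 23.0% and 53.5%. On chromosomes 6 and 7, at chr6:178319898-178333710 (13813 bp) and chr7:88010024-88022899 (12876 bp), no H3K27me3 was met and H3K9Ac covered 38.1% and 15.0%. Chromosome 4 therefore had the shortest of the 8 widest peaks and chromosome 3 the longest.

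Median spacing was shortest on the densest autosome and longest on the sparsest, but did not follow density throughout. The gap from the end of a peak to the start of the next had a median of 54.5 kb and a mean of 152 kb over 22078 neighbouring pairs, with an interquartile range of 13.9 to 147 kb. The median gap was 42.8 kb on chromosome 2 (40.4 to 46.3), 53.1 kb on chromosome 4, 53.4 kb on chromosome 6, 54.9 kb on chromosome 3 and 55.1 kb on chromosome 1. It was 59.7 kb on chromosome 8, 72.2 kb on chromosome 5 (64.9 to 79.5) and 79.2 kb on chromosome 7 (70.1 to 89.8). The longest median was 1.85 times the shortest. The intervals of chromosomes 5 and 7, which cover counting only, lie above that of chromosome 2. Chromosomes 1 and 3 had nearly the same median gap at 6.92 and 5.95 peaks per Mb.

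Gaps fell into a main group and a short shoulder. The most common lengths, per step of equal ratio, were 56.2 to 100 kb, with 14.7% of all gaps. Between 0.178 and 1.78 kb the frequency was nearly level, with 1.76% to 1.97% of gaps in each such step. Gaps under 200 bp made up 4.44% (980), gaps of 200 bp to 1 kb 5.47% and gaps of 1 to 5 kb 6.42%. The share under 1 kb was 8.65% on chromosome 4, 9.34% on chromosome 1 and 11.8% on chromosome 2, with the other 5 autosomes from 9.40% to 10.3%. The shoulder was thus present on each autosome at a similar level. Chromosome 2 also had the largest share of gaps of 5 to 20 kb, 15.6%, against 9.92% on chromosome 7.

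**Figure D3:**
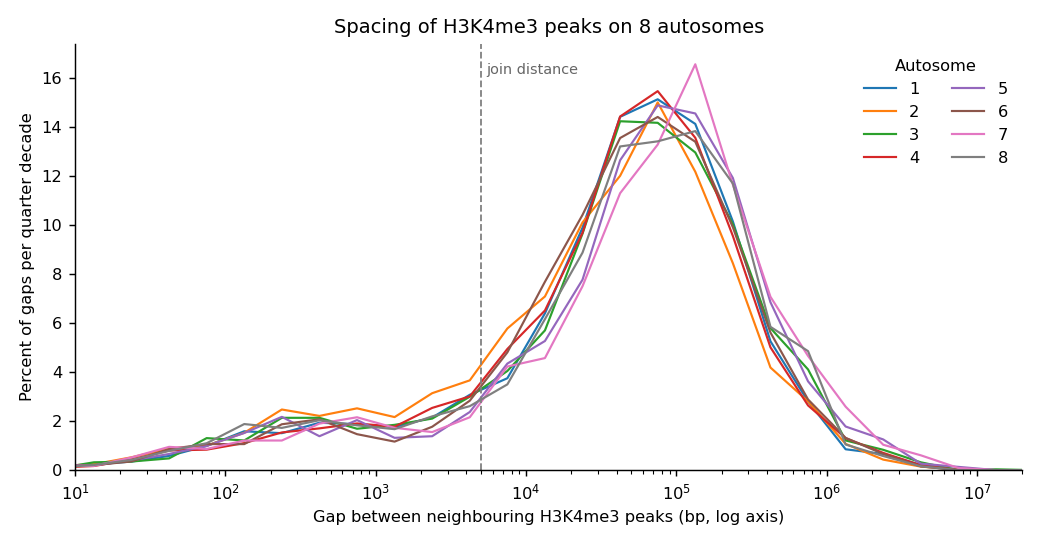
Gaps between neighbouring H3K4me3 peaks on each autosome, as percent of gaps per step of equal ratio against gap length (log axis); the dashed line marks the 5 kb join distance. All 8 curves have a broad maximum (56.2 to 100 kb for the autosomes together) and a low shoulder below 1 kb, and median gaps run from 42.8 kb on chromosome 2 to 79.2 kb on chromosome 7.

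At the other extreme, 479 gaps exceeded 1 Mb and took up 951 Mb. They filled 39.7% of chromosome 7 and 37.1% of chromosome 5, but 24.1% of chromosome 2 and 20.6% of chromosome 8. The longest was chr3:126594714-137342589 (10.7 Mb) and contained 2 H3K9me3 peaks and no H3K9Ac or H3K27me3 peak. The next were chr5:188635770-195761949 (7.13 Mb), chr7:146314885-153068965 (6.75 Mb), chr2:312412165-319008200 (6.60 Mb) and chr1:233637225-239505882 (5.87 Mb). The gap on chromosome 7 held no peak of any other mark, and the gap on chromosome 2 held 2 H3K9Ac and 4 H3K9me3 peaks. The gap on chromosome 5 held 1 H3K9Ac, 1 H3K27me3 and 2 H3K9me3 peaks, and that on chromosome 1 held 1 H3K9me3 peak. The list does not say which sequence could be read by alignment, so unreadable sequence and sequence without the mark cannot be told apart in these gaps. The gap on chromosome 5 ended at a 12072 bp peak with a score of 3100, and the gap on chromosome 1 began at a 10266 bp peak with the same score.

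Peaks were unevenly spread over bins of 1 Mb. The 3417 bins held a median of 5 peaks (interquartile range 2 to 9), and 474 bins (13.9%) held none. The variance of the bin counts was 6.78 times their mean. By autosome this ratio was lowest on chromosome 7 (4.88) and highest on chromosome 2 (9.23). Empty bins made up 20.8% of chromosome 7 and 20.1% of chromosome 5, against 10.6% of chromosome 8, 10.7% of chromosome 6 and 11.6% of chromosome 1. The 165 bins with 20 or more peaks, 4.83% of bins, held 19.7% of the peaks. Counts of adjacent bins were correlated on each autosome, with r from 0.35 on chromosome 7 to 0.62 on chromosome 3, so dense stretches extended beyond 1 Mb.

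The most crowded bin started at 494 Mb on chromosome 2. It held 64 peaks that covered 19.2% of it, with a median width of 2598 bp and a median score of 663. Of the 64 peaks, 22 met H3K9Ac and 25 met H3K27me3. The next bins had 46 peaks each, at 255 Mb on chromosome 2 and 383 Mb on chromosome 4, followed by 45 peaks at 384 Mb on chromosome 4 and 43 at 447 Mb on chromosome 3. The 2 adjacent bins of chromosome 4 had median scores of 192 and 194 and few acetylated peaks (7 of 46 and 9 of 45). Crowded bins therefore held strong peaks in one place and weak ones in another.

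Clusters were defined as runs of peaks less than 5 kb apart. Whether such neighbours are pieces of a single enriched region was not tested. By this rule 6394 peaks (29.0%, 28.4% to 29.6%) lay in 2789 clusters and 15692 stood alone. Most clusters were pairs, of which there were 2266. The list also held 354 runs of 3, 110 of 4 and 59 of 5 or more peaks. Clustered peaks made up 34.0% on chromosome 2 and 25.9% to 29.1% on the other 7 autosomes. Chromosome 2 stood out further in runs of 4 or more, which held 6.47% of its peaks (272 peaks in 58 runs) against 1.97% to 3.41% elsewhere.

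Clustered peaks were narrower, weaker and less often acetylated than lone ones. Their median width was 1805 bp against 2131 bp and their median score 260 against 393, and each difference had the same direction on 8 of 8 autosomes. In pairs, the peaks and the gap together spanned a median of 5.13 kb, of which peaks filled 88.5%. The stronger peak of a pair had a median score of 598 and the weaker 123. In runs of 4 the highest member had a median of 864 and the lowest 65.8. More members alone widen the distance between highest and lowest.

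The strength of a peak said little about that of its neighbour. For gaps under 200 bp the scores of the 2 neighbours had a rho of -0.13 over 980 pairs, and for gaps of 200 bp to 1 kb -0.15 over 1207 pairs. Neighbours 5 to 20 kb apart had a rho of 0.19 and those 20 to 100 kb apart 0.17, and beyond 500 kb it was 0.02. These are weak correlations across pairs that share members. The higher score of 2 neighbours under 200 bp apart was 3.01 times the lower by median. At 20 to 100 kb it was 2.48 times and beyond 500 kb 3.20 times the lower. This median ratio lay between 2.47 and 3.29 in all 7 classes of gap length.

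H3K27me3 was more frequent in larger clusters and H3K9Ac less frequent. The share of H3K4me3 peaks that met it was 15.1% (14.6% to 15.7%) for lone peaks, 15.4% in pairs, 20.9% in runs of 3, 32.3% in runs of 4 and 58.6% (53.3% to 63.7%) in runs of 5 or more. Counted in bases, H3K27me3 covered 8.70% of lone peaks and 53.8% of those in runs of 5 or more. H3K9Ac went the other way, from 45.4% of lone peaks to 37.1%, 31.9%, 28.6% and 23.6% along the same steps. Median score also fell along these steps, from 393 to 290, 215, 171 and 168. Shares by cluster size were not adjusted for score. Clustered peaks as a whole met H3K27me3 more often and H3K9Ac less often than lone peaks on 8 of 8 autosomes. Counted by cluster, 66.1% of the 59 runs of 5 or more had at least 1 peak with H3K27me3 and 64.4% at least 1 with H3K9Ac, against 15.1% and 45.4% of lone peaks. A longer run has more sequence in which to meet either mark.

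**Figure D4:**
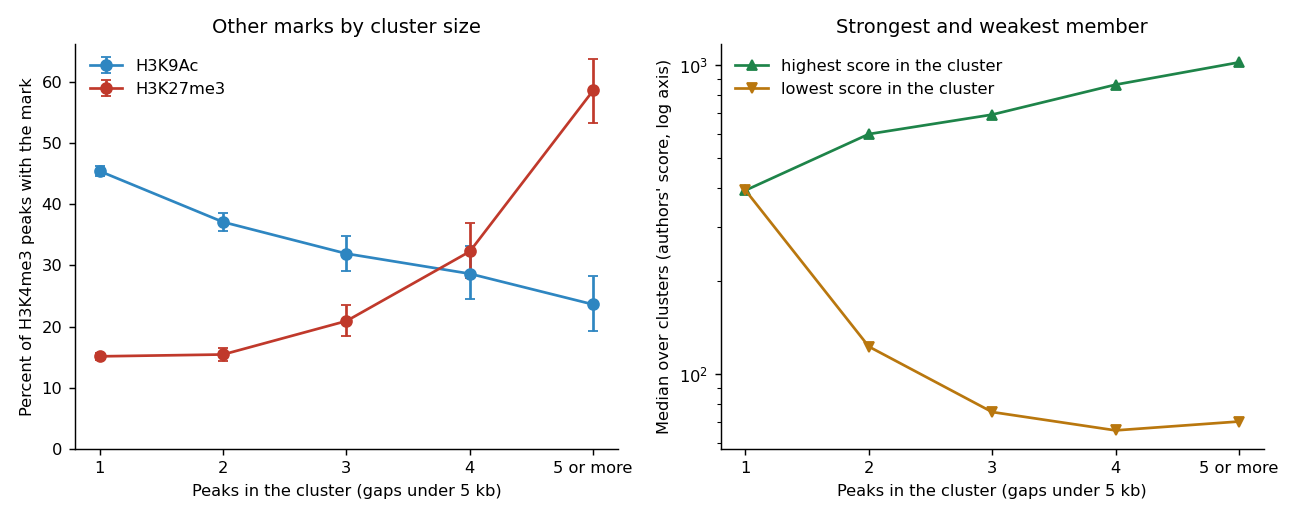
Left, percent of H3K4me3 peaks that met H3K9Ac (blue) or H3K27me3 (red) by the number of peaks in their cluster, with 95% intervals for counting. Right, the median over clusters of the highest and the lowest score (log axis). The H3K27me3 share rises from 15.1% to 58.6% while the H3K9Ac share falls from 45.4% to 23.6%, neither adjusted for score.

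The 11 clusters of 8 or more peaks held 101 peaks, of which 76 met H3K27me3 and 26 met H3K9Ac. The largest, at chr2:201113080-201183423, had 15 peaks over 70.3 kb that filled 77.2% of it. All 15 met H3K27me3, and 1, the first, met H3K9Ac. Their scores ran from 74.41 to 1529.16. The 2 clusters of 10 peaks lay at chr3:208733582-208769370 (7 with H3K27me3, 2 with H3K9Ac) and chr4:182286215-182316481 (10 and 3). The 2 clusters of 9 lay at chr1:133700962-133745603 (8 and 4), which includes the third widest peak, and chr3:203919149-204022736 (7 and 0), which includes the 2 widest.

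The largest runs were not all of this kind. On chromosome 8 the run with the most peaks, at chr8:251849004-251897105, had 8 peaks, of which 6 met H3K9Ac and none H3K27me3. On chromosome 6 it lay at chr6:18158032-18188630, with 7 peaks, of which 1 met H3K9Ac and none H3K27me3. On chromosome 5 it had only 5 peaks (chr5:267417169-267428694), all with H3K27me3 and none with H3K9Ac. On chromosome 7 it had 6 (chr7:211735651-211761192), 5 with H3K27me3 and 1 with H3K9Ac.

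Acetylation followed the strength of the H3K4me3 peak on each autosome. H3K9Ac was met by 8.72% of peaks with a score under 100, 17.0% at 100 to 200, 31.4% at 200 to 400, 55.1% at 400 to 800, 79.7% at 800 to 1600 and 91.6% above. The same rise was seen on every one of the 8 autosomes, whose shares ran from 6.92% to 9.71% in the lowest class and from 88.2% to 94.8% in the highest. Wider peaks have more sequence in which to meet a mark. Counted in bases, H3K9Ac covered 5.95% of the lowest class and 35.7% of the highest. Most acetylated peaks met a single H3K9Ac peak (8147), while 1067 met 2 and 143 met 3 or more, with median widths of 2624, 4046 and 6516 bp.

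H3K27me3 was most frequent on peaks of intermediate strength. It was met by 17.0% of peaks with a score under 100, 23.6% (22.2% to 25.1%) at 100 to 200, 23.0% at 200 to 400, 15.8% at 400 to 800, 8.01% at 800 to 1600 and 8.14% above. Chromosome 7 had 15.5% of 193 peaks at 800 to 1600 (10.7% to 21.4%), the highest of the 8 autosomes in that class. This interval overlaps that of chromosome 5, the next highest with 10.7% (7.31% to 15.1%). By width, the share fell from 19.3% at 1 to 2 kb to 12.5% at 3 to 5 kb and then rose to 46.9% (32.5% to 61.7%) among the 49 peaks of 10 kb or more. Of those 49 peaks, 39 met H3K9Ac. H3K9me3 was met by 107 members in all, and by 4 of the 49 broadest.

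**Figure D5:**
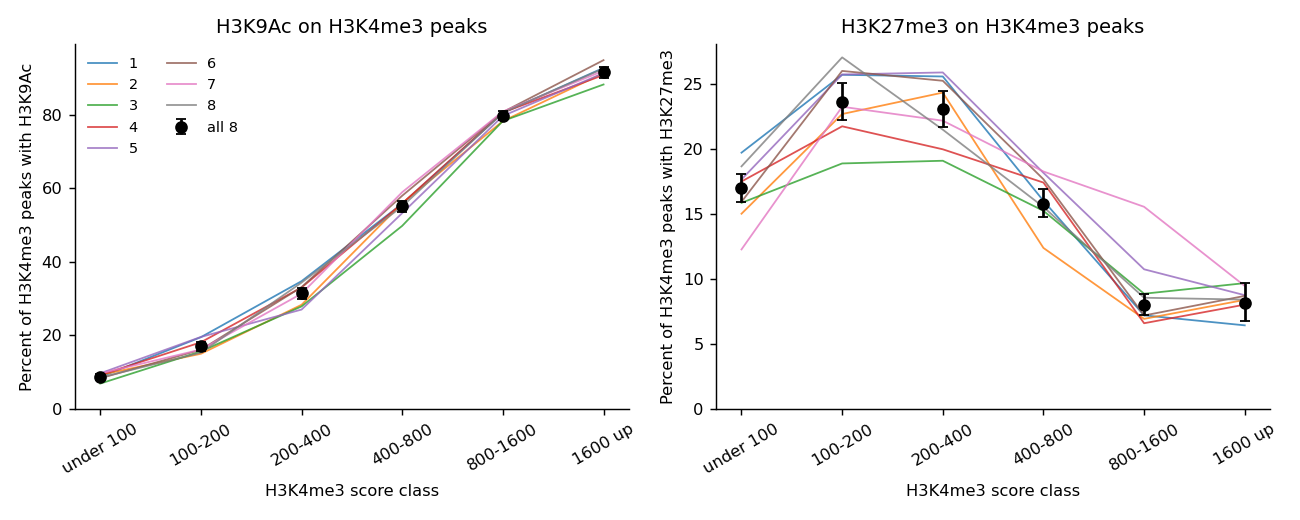
Percent of H3K4me3 peaks that met H3K9Ac (left) or H3K27me3 (right) by class of H3K4me3 score (authors' value), as a line for each autosome and black points with 95% intervals for all 8 together. The H3K9Ac lines rise from 6.92% to 9.71% in the lowest class to 88.2% to 94.8% in the highest, and the H3K27me3 share of all 8 is highest at 100 to 200, with 23.6%.

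Between autosomes the share with H3K9Ac ran from 39.4% (37.7% to 41.1%) on chromosome 3 to 45.0% (42.8% to 47.3%) on chromosome 6. Chromosome 1 had 44.7%, chromosome 4 had 42.5%, chromosome 8 had 41.9%, chromosome 7 had 41.6%, chromosome 2 had 41.5% and chromosome 5 had 40.3%. The intervals of neighbours in this order overlap, and those of chromosomes 3 and 6 do not. Shares of single blocks, which hold far fewer peaks than an autosome, had an interquartile range of 36.8% to 53.2%. Given the scores of its peaks and the shares of all 8 autosomes per score class, chromosome 3 would have had 42.2%, 2.80 percentage points more than observed, while the other 7 autosomes were within 1.28 points of their value. Chromosome 3 outside its last 20% had 46.3% (43.9% to 48.7%), and within it 31.4% (29.1% to 33.9%). Chromosome 4, whose whole share was 0.849 points above its value from scores, had a similar split. There 49.6% (47.3% to 52.0%) met H3K9Ac outside and 32.0% (29.4% to 34.8%) within its last 20%. These splits were not adjusted for score. Median scores within the last 20% were lower, 321 against 370 outside it on chromosome 3 and 273 against 397 on chromosome 4.

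In the last 10% of the length a smaller share of H3K4me3 peaks was acetylated than in the inner parts, on 8 of 8 autosomes. There 30.4% (28.9% to 32.0%) of H3K4me3 peaks met H3K9Ac, from 23.2% on chromosome 8 to 36.3% on chromosome 6, against 42.5% to 47.7% in the inner parts. From their scores, 36.5% would have met it, and the observed share was below that value on 8 of 8 autosomes, by 0.714 to 10.7 percentage points. H3K27me3 showed no common direction there, with 7.09% on chromosome 3 and 34.5% on chromosome 8 against 14.5% to 20.2% in the inner parts, higher on 4 autosomes and lower on 4. In the first 10% of the length, 38.9% (37.0% to 40.9%) of H3K4me3 peaks met H3K9Ac, against 39.4% from their scores. This share was lower than in the inner parts on 6 autosomes and higher on 2. It ran from 25.8% on chromosome 2 to 57.2% on chromosome 4.

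The share with H3K27me3 differed little between whole autosomes. It was highest on chromosome 5, at 18.8% (16.8% to 20.8%), and lowest on chromosomes 3 and 2, at 15.1% (13.8% to 16.4%) and 15.2% (14.2% to 16.4%). The interval of chromosome 5 lies above those of chromosomes 2 and 3, and the other 5 autosomes had 16.0% to 17.5%. These intervals cover counting only, and no spread over blocks was computed for this share. H3K9me3 was met by 0.892% of the peaks of chromosome 3 (28 peaks, 0.593% to 1.29%) and by 0.263% to 0.506% elsewhere. These counts are small, and the interval of chromosome 3 overlaps those of all other autosomes except chromosome 2 (0.148% to 0.498%). Chromosome 3 also had the most H3K9me3 peaks for its H3K4me3 peaks, 5.67 per 100 against 1.82 to 3.61 per 100.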

How the data were processed

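Per the labels, chromatin of each pool was divided among the antibodies, and both libraries of a mark name 1 deposited peak list. The submitters' processing notes name Bowtie 1.1.2, MACS 1.0.1 and CASAVA 1.7, without settings. Not given in the sources used here are the genome build, the control library, the threshold and how the libraries were combined. The deposited lists give the position and score of each peak; the scale of the score is not recorded. Nothing was left out of the autosomal lists.

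The length of an autosome runs between the outermost peaks of the 4 lists. Bins and blocks count peak midpoints from position 0, leaving out the last partial one. Marks meet at 1 bp or more. Named regions are the 5 widest, and 5 highest-scoring peaks, the 5 longest gaps, the 5 largest clusters, the most crowded bins, and the widest peak and largest cluster of each autosome, with ties by position. Members, rules and classes were chosen with earlier results of these data known. Alternatives changed the join distance, bin size, overlap, score range and length. Procedures were tested on simulated data. Python 3.11.15, numpy 2.4.6, pandas 2.3.3, scipy 1.17.1 and matplotlib 3.10.9 were used.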

Additional observations from a re-analysis of the deposited data

How the results depend on the processing

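No paired analysis was possible because each mark has 1 pooled list. Counting length from position 0 left the density ratio of chromosome 2 to chromosome 7 at 1.75, and joining peaks less than 5 kb apart gave 1.63. Joining peaks less than 1 kb apart moved the median width to 2263 bp. Clustered peaks made up 22.1% with a 2 kb and 36.3% with a 10 kb join distance. The variance of bin counts was 4.48 times the mean in bins of 500 kb and 17.9 times in bins of 5 Mb. It was 6.65 times without the most crowded bin and 4.91 times with peaks joined, 2 settings chosen after seeing the data. With 50% of the shorter peak shared, 14.6% met H3K27me3. For the 50% of peaks with the highest scores, chromosome 2 was 1.84 times as dense as chromosome 7, the median width was 2916 bp and the median gap 115 kb. There 11.4% lay in clusters, 67.7% met H3K9Ac and 12.2% met H3K27me3. Chromosomes 2 and 7 stayed the densest and sparsest in all 4 density settings, and chromosome 2 stayed the most clustered (15.3%), but the order of the 8 autosomes in clustering was not kept (rho 0.10). The lowest median width there was that of chromosome 4 and the lowest median score that of chromosome 8, while chromosome 1 had the highest. The shortest median gap moved from chromosome 2 to chromosome 6. The highest H3K27me3 share moved from chromosome 5 to chromosome 7 (16.4%) and the lowest from chromosome 3 to chromosome 2 (10.7%). Depth is unknown, so weak peaks below the threshold of the list cannot be counted.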
